A study of Mus musculus with 3 samples.

Results

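Transcripts of 10 genes of cellular iron handling were examined in myeloid cells sorted from mouse bone marrow. The genes were taken by name from a list: the iron exporter gene Slc40a1, the haem oxygenase gene Hmox1, the haem transporter gene Slc48a1, the ferritin genes Fth1 and Ftl1, the metal transporter genes Slc11a1 and Slc11a2, the transferrin receptor gene Tfrc, and the iron regulatory protein genes Ireb2 and Aco1. All 10 were found once among the 11419 genes of the deposited tables. The study sequenced mRNA from 3 libraries of 1 population of C57BL/6 mice, an inbred strain, with cells gated as CD11b+, F4/80+, CD169+ and CX3CR1neg. There was no second population, treatment or control, and the labels gave no age or sex. Nothing in the labels ties the 3 libraries to separate mice, so every p-value rests on the spread among these libraries alone, and that spread may be technical. In the tests of level, the spread was also shared between genes, so it is not that of 1 gene alone.

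Macrophages of the marrow and spleen take up old red cells, break down their haem and return the iron to plasma. Haem leaves the phagosome through the transporter HRG1 (gene Slc48a1), haem oxygenase 1 (Hmox1) opens the ring and frees the iron, and the iron is stored in ferritin or leaves the cell through ferroportin (Slc40a1). Cells that need iron take it up as transferrin through the transferrin receptor (Tfrc) and carry it out of the endosome through DMT1 (Slc11a2), while NRAMP1 (Slc11a1) moves metal ions out of the phagosome of phagocytes. The iron regulatory proteins IRP1 (Aco1) and IRP2 (Ireb2) bind hairpins called iron-responsive elements in low iron, which blocks translation from a 5' UTR hairpin and protects the mRNA with 3' UTR hairpins.

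These hairpins tie several of the 10 mRNAs to the same regulators, and are therefore shown first. The pattern CNNNNNCAGTGNNNNNN was searched on the transcript strand of the annotated protein-coding transcripts, with the requirement that the 5 bases before the 6-base loop pair with the 5 bases after it (A with T, G with C, or G with T). It was found in the UTRs of 4 of the 10 genes, as 1 site each in the 5' UTR of Fth1, Ftl1 and Slc40a1 and as 4 sites in the 3' UTR of Tfrc. Among all listed genes with an annotated UTR, 0.196% held the hairpin in a 5' UTR (21 of 10705) and 0.793% in a 3' UTR (85 of 10722). In coding sequence the share was 0.762% (82 of 10763), close to that in 3' UTRs. The other 6 genes had no match to this pattern in the transcripts searched. The pattern allowed no extra or unpaired base in the arms, so an element of another form would be missed. No match therefore does not show that a gene lacks an element, and Tfrc may hold more than the 4 sites found. Each sequence below is 30 bases of the GENCODE M21 transcript (GRCm38), with the loop in capitals.
Fth1, 5' UTR, chr19:9982732-9982761, plus strand: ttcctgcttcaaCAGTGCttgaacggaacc
Ftl1, 5' UTR, chr7:45459778-45459807, minus strand: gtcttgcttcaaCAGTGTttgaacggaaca
Slc40a1, 5' UTR, chr1:45925464-45925493, minus strand: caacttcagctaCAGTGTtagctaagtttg
Tfrc, 3' UTR site 1, chr16:32631219-32631248, plus strand: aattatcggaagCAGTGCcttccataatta
Tfrc, 3' UTR site 2, chr16:32631598-32631627, plus strand: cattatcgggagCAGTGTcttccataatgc
Tfrc, 3' UTR site 3, chr16:32631663-32631692, plus strand: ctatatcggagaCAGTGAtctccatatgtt
Tfrc, 3' UTR site 4, chr16:32631710-32631739, plus strand: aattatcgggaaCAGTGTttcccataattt
The search fixed the first 5 bases of each loop and left its last base free, which was T in 4 sites, C in 2 and A in 1. A match is a description of the letters, and the data hold no measurement of protein binding or translation.

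The values are CPM, the reads of a gene per 1000000 reads assigned to the listed genes. The libraries held 5150020, 40149274 and 37604930 assigned reads in replicates 1, 2 and 3, so a gene at 10 CPM had 51.5 reads in replicate 1 and 401 and 376 in the others. The labels call the cells macrophages. Of 16 macrophage markers 6 were above 10 CPM and 8 below, where 58.8% and 28.3% of all genes tested were above and below, with Siglec1, the gene of CD169 itself, at 2.87 ± 2.20 CPM (SD, n = 3). All 16 neutrophil markers were above 10 CPM, and together they took between 194310 and 230707 CPM, against 264 to 290.5 CPM for the macrophage markers. The low Siglec1 and the abundant neutrophil markers go against the label, so the cells are called by their gate, and the levels are those of the sorted cells as a whole. In bulk RNA, fewer cells of a type and less RNA per cell cannot be told apart.

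Of the 10 genes, 9 were above a fixed level of 10 CPM and 1 was below it. The limma test on log2(CPM + 1), adjusted by Benjamini and Hochberg over 11123 genes, called 58.8% of all tested genes above that level and 28.3% below. The median of the 10 genes was 92.3 CPM, beside 19.7 CPM over all listed genes. Together they took 0.228%, 0.202% and 0.194% of reads in replicates 1, 2 and 3. The pair of ferritin genes supplied 73.7%, 73.3% and 68.5% of the reads of the 10 genes. The count above was 8 when replicate 1, 2 or 3 was left out, beside 59.0%, 57.6% and 58.2% of all genes tested (with 27.8%, 23.1% and 27.0% below), since Aco1 then missed the threshold. It was also 8 with DESeq2 on the recovered reads (59.0% of all genes above and 26.4% below) and against 20 CPM (44.3% above and 42.2% below), and 9 with edgeR (59.9% above and 25.1% below) and against 5 CPM (69.3% above and 16.8% below).

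**Figure D1:**
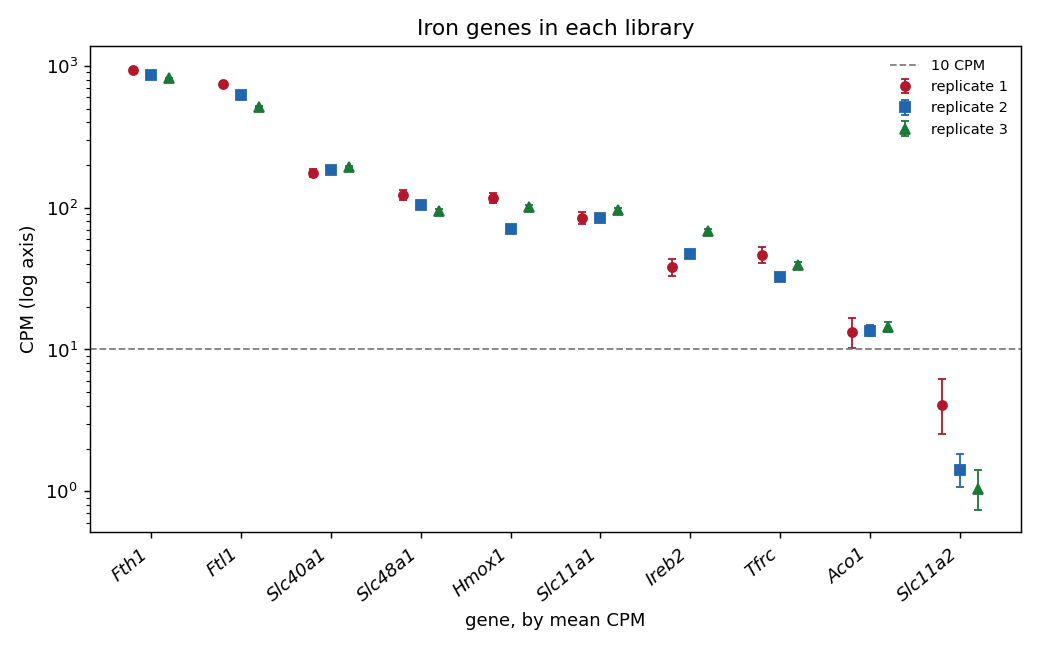
CPM of each of the 10 iron genes (log axis) in replicates 1, 2 and 3, with bars for the 95% Poisson interval of the read count, and the level of 10 CPM as a dashed line. Fth1 and Ftl1 stand highest, 7 genes lie between 13.2 and 194 CPM, and Slc11a2 lies under 10 CPM in all 3 libraries.

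Slc40a1 encodes ferroportin, the only known iron exporter of mammalian cells, and it was the most abundant of the 8 genes that do not encode ferritin. It had 175, 184 and 194 CPM in replicates 1, 2 and 3, from 900, 7386 and 7282 reads. The counting intervals of replicates 1 and 2 overlapped (164 to 187 and 179.8 to 188 CPM) and that of replicate 3 lay just above both (189 to 198 CPM). These are CPM as deposited. The TMM scaling of edgeR, which adjusts for library composition, would shift log2 values by 0.046, 0.042 and -0.089 in replicates 1, 2 and 3. The order of the libraries for Slc40a1 therefore depends on the scaling. Its mean of 184 ± 9.45 CPM (SD, n = 3) lay 4.07 over 10 CPM on the log2(CPM + 1) scale (SE 0.11, limma adjusted p = 1.91e-19). This was a narrow spread: the coefficient of variation was 5.13%, and 12.1% of the 868 genes within 1.5 times of its level had a smaller one. The gene ENSMUSG00000025993 lies on GRCm38 chromosome 1 (45908068 to 45926523, minus strand).

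The level of Slc40a1 can be set beside macrophage genes per kb of exon, the scale on which genes of different length compare. Slc40a1 was at 20.5 ± 1.05 CPM per kb of its merged annotated exons (SD, n = 3). On the same scale the 16 macrophage markers ran from 0.233 ± 0.124 for Mertk, a receptor gene for dying cells, to 35.5 ± 4.44 for the lysosomal membrane protein gene Cd68, the 1 marker with a higher mean than Slc40a1. The complement genes C1qa and C1qb were next, at 18.0 ± 7.60 and 13.3 ± 4.88, and the mean of Slc40a1 lay within 1 SD of that of C1qa. The CSF1 receptor gene Csf1r was at 9.55 ± 2.39, the adhesion molecule gene Vcam1 at 8.38 ± 2.18 and the F4/80 gene Adgre1 at 6.85 ± 1.23. Siglec1 was at 0.402 ± 0.308 and Spic, a transcription factor gene of iron-recycling macrophages, at 0.660 ± 0.263. The order depended on length: per kb of the first-numbered mRNA in GENCODE, Slc40a1 was at 54.6 ± 2.80 and above all 16 markers, of which Cd68 was at 36.3 ± 4.54, Vcam1 at 21.4 ± 5.57 and C1qa at 18.0 ± 7.60. Over the libraries the macrophage markers summed to 290.5, 264 and 288 CPM with none at 0, and Siglec1 itself had 0.388, 3.66 and 4.57 CPM (2, 147 and 172 reads) while Slc40a1 stayed between 175 and 194. Whether macrophages or the other cells of the sort carried the Slc40a1 mRNA was not tested.

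Hmox1, the inducible haem oxygenase gene, was less even over the libraries than Slc40a1. It had 117, 70.9 and 101 CPM in replicates 1, 2 and 3, from 600, 2847 and 3794 reads, and the 3 counting intervals did not overlap (107 to 126, 68.3 to 73.6 and 97.7 to 104 CPM). Replicate 2 was the low one. The mean was 96.1 ± 23.2 CPM, a level 3.11 over 10 CPM on the log2(CPM + 1) scale (SE 0.14, limma adjusted p = 1.56e-15). Hmox1 (ENSMUSG00000005413) lies on chromosome 8 (75093621 to 75100589, plus strand).

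Slc48a1, which encodes the haem transporter HRG1, had 123, 104 and 94.3 CPM in the same order, with intervals of 114 to 133, 101 to 107 and 91.2 to 97.5 CPM that did not overlap. Replicate 1 was highest for both haem genes, and the lowest library differed between them. The mean of Slc48a1 was 107 ± 14.6 CPM, a log2 level 3.29 over 10 CPM (SE 0.12, limma adjusted p = 7.57e-17). Its gene (ENSMUSG00000081534, chromosome 15, 97778520 to 97792692, plus strand) shares 29 bases of exon with Hdac7 on the other strand. Hdac7, a histone deacetylase gene, was at 38.6, 31.0 and 48.2 CPM, and the strand setting of the counting was not given in the sources used here.

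Within libraries, Hmox1 exceeded Slc48a1 per kb of exon by 0.48 ± 0.33 on the log2 scale of (CPM + 1) per kb (SD, n = 3), with differences of 0.58, 0.11 and 0.75. Slc40a1 was lower than Hmox1 per kb by this length in 3 of 3 libraries, with a difference of -1.40 ± 0.39. That gap depended on the length used. The merged exons of Slc40a1 span 9000 bases, with retained-intron transcripts among them, while its first-numbered mRNA in GENCODE has 3370. With the lengths of the first-numbered mRNAs the Slc40a1 - Hmox1 difference was -0.14 ± 0.39, so the order of these genes is not settled. For this and every one of the 8 pairs compared, the exact two-sided sign-flip permutation p over 3 libraries was 0.25, which is the smallest that 3 libraries allow and is also the value after adjustment over the 8 pairs.

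Ferritin is a hollow shell of heavy and light chains, the heavy chain (Fth1) oxidising iron for storage and the light chain (Ftl1) favouring its mineral core. Fth1 had 939, 858 and 815 CPM in replicates 1, 2 and 3, from 4838, 34459 and 30657 reads. Replicate 1 was highest and replicate 3 lowest, with intervals that did not overlap (913 to 966, 849 to 867 and 806 to 824 CPM). The mean was 871 ± 63.1 CPM, a log2 level 6.31 over 10 CPM (SE 0.10, limma adjusted p = 1.86e-23), which ranked Fth1 112th of the 11419 genes by CPM. Fth1 (ENSMUSG00000024661) lies on chromosome 19 (9980598 to 9985098, plus strand).

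Ftl1 had 741, 620.1 and 511 CPM, from 3818, 24895 and 19225 reads, in the same order of libraries as Fth1 and with a wider range. Its highest library was 1.45 times its lowest, against 1.15 times for Fth1. The mean was 624 ± 115 CPM, a log2 level 5.81 over 10 CPM (SE 0.11, limma adjusted p = 3.69e-22). Ftl1 (ENSMUSG00000050708, chromosome 7, 45457944 to 45459884, minus strand) shares 355 bases of exon with the unclassified opposite-strand gene Gm10252, at 7.38, 6.92 and 9.15 CPM. The annotation also holds near-identical copies of both ferritin genes, such as Fth-ps2 and Ftl1-ps1, none of which was listed, so the counts of Fth1 and Ftl1 are uncertain by the reads that such copies share.

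Which ferritin chain was higher turned on gene length. In CPM, Fth1 was above Ftl1 in 3 of 3 libraries. Per kb of merged exon Fth1 was below Ftl1, by -0.88 ± 0.17 on the log2 scale (differences of -1.03, -0.90 and -0.70), at 251 ± 18.2 against 466 ± 85.9 CPM per kb. The merged exons of Fth1 come to 3469 bases, including retained introns, and its first-numbered mRNA has 929 bases, close to the 968 of Ftl1. With the first-numbered mRNAs the order reversed, to 0.55 ± 0.17, at 938 ± 67.9 CPM per kb for Fth1 and 645 ± 119 for Ftl1. Under both lengths each ferritin gene was far above the other 8 genes, of which the highest, Hmox1, was at 54.9 ± 13.2 CPM per kb of merged exon.

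**Figure D2:**
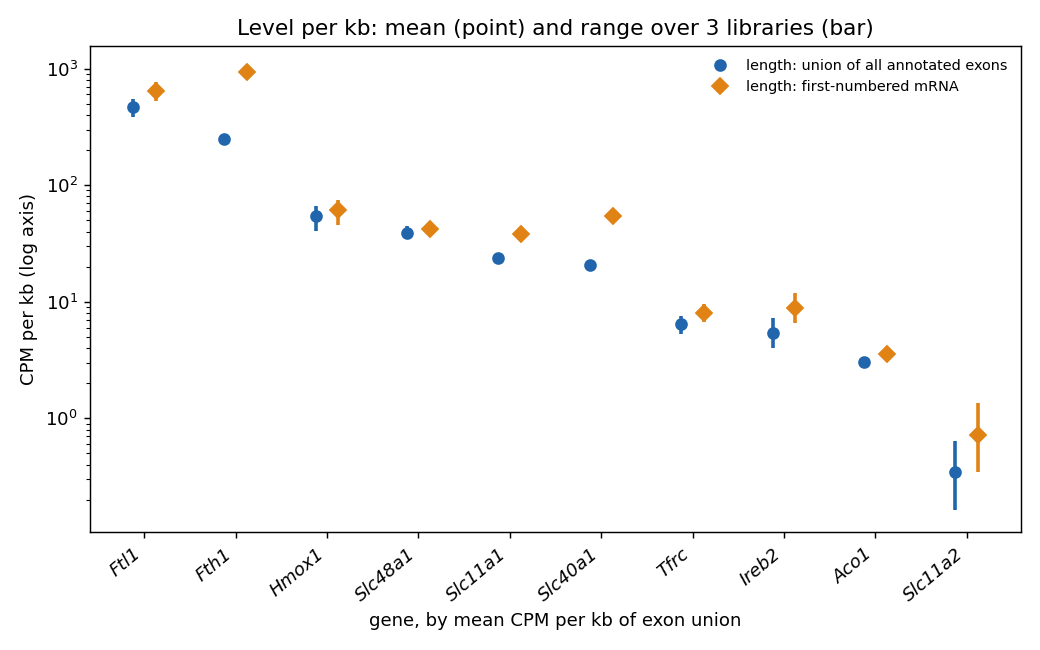
CPM per kb (log axis) of the 10 genes, with length taken as the union of annotated exons (circles) or as the first-numbered mRNA (diamonds), showing the mean and the range over 3 libraries. The ferritin genes swap order between the lengths, Slc40a1 moves from 20.5 to 54.6 CPM per kb, and Slc11a2 is lowest under both.

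The natural resistance gene Slc11a1 was in the middle of the 10 genes and its paralogue Slc11a2 was the lowest. Slc11a1, whose product NRAMP1 withholds metals from engulfed microbes, had 84.9, 84.0 and 96.6 CPM in replicates 1, 2 and 3, from 437, 3371 and 3632 reads. Replicates 1 and 2 overlapped in counting interval and replicate 3 was slightly higher (93.5 to 99.8 CPM), a gap in CPM as deposited that TMM scaling would narrow. The mean was 88.5 ± 7.04 CPM, a log2 level 3.02 over 10 CPM (SE 0.13, limma adjusted p = 4.18e-16). Slc11a1 (ENSMUSG00000026177) lies on chromosome 1 (74375195 to 74386062, plus strand).

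Slc11a2, which encodes DMT1, was the 1 gene below 10 CPM. It had 4.08, 1.42 and 1.04 CPM, from 21, 57 and 39 reads, and a mean of 2.18 ± 1.66 CPM (log2 level -1.91 against 10 CPM, SE 0.32, limma adjusted p = 1.22e-05). Replicate 1 was the high library, with an interval of 2.52 to 6.23 CPM that did not overlap those of replicate 2 (1.08 to 1.84) and replicate 3 (0.737 to 1.42). The sums of eosinophil and B lymphoid markers were highest in replicate 3, and those of the other cell types were also highest in replicate 1. Basophil and mast cell markers were at 1529.9 CPM in replicate 1 against 746 and 813 (7 listed, 4 above 10 CPM, none at 0). Erythroid markers were at 1096 CPM against 639 and 644 (13 listed, 7 above 10 CPM, none at 0). The relative gap was smaller for monocyte markers (1201, 1078 and 974 CPM), neutrophil markers (230707, 230433 and 194310) and macrophage markers (290.5, 264 and 288). Hdc, the histidine decarboxylase gene and the most abundant of the basophil and mast cell markers, was instead lowest in replicate 1, at 552 CPM against 609 and 675. The part of these cell types in the Slc11a2 difference was not tested. Slc11a2 (ENSMUSG00000023030) lies on chromosome 15 (100387898 to 100425072, minus strand).

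Per kb of merged exon, Slc11a1 exceeded Slc11a2 by 5.71 ± 0.77 on the log2 scale, and in each library by 35.7, 101 and 160 times without a pseudocount. The haem transporter gene Slc48a1 exceeded it by 6.41 ± 0.51. Both differences held in 3 of 3 libraries.

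Tfrc, the transferrin receptor gene that carries 4 of the hairpins printed above, was expressed at a moderate level. It had 46.6, 32.5 and 39.4 CPM in replicates 1, 2 and 3, from 240, 1305 and 1480 reads. Replicate 2 was the low library (30.8 to 34.3 CPM), and the intervals of replicates 1 and 3 overlapped (40.9 to 52.9 and 37.4 to 41.4 CPM). The mean was 39.5 ± 7.05 CPM, a log2 level 1.87 over 10 CPM (SE 0.15, limma adjusted p = 1.59e-10). Tfrc (ENSMUSG00000022797) lies on chromosome 16 (32608920 to 32632794, plus strand).

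Erythroblasts and dividing cells carry much transferrin receptor, so the erythroid markers are given beside Tfrc. They summed to 1096, 639 and 644 CPM in replicates 1, 2 and 3, with 7 of 13 listed markers above 10 CPM, 5 below and none at 0 in any library. Their sum was thus highest in replicate 1, as was Tfrc, and nearly equal in replicates 2 and 3, where Tfrc differed. The sums of basophil and mast cell, monocyte, neutrophil and macrophage markers were also highest in replicate 1. The part of erythroid cells in the level of Tfrc was not tested.

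Slc40a1 encodes an exporter and Tfrc an uptake receptor, and the data hold their mRNA only, with no measure of protein or of iron movement. Slc40a1 exceeded Tfrc per kb of merged exon in 3 of 3 libraries, by 1.67 ± 0.30 on the log2 scale, or 2.58, 3.89 and 3.38 times without a pseudocount. With the first-numbered mRNAs the difference was 2.74 ± 0.30. Tfrc in turn exceeded Slc11a2, its partner in endosomal uptake, by 3.82 ± 0.54 per kb, with differences of 3.27, 3.83 and 4.35.

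Of the regulators, Ireb2 differed most between libraries and Aco1 least. Ireb2, which encodes IRP2, had 38.1, 47.1 and 68.4 CPM in replicates 1, 2 and 3, from 196, 1892 and 2574 reads, and no 2 counting intervals overlapped (32.9 to 43.8, 45.0 to 49.3 and 65.8 to 71.1 CPM). Replicate 3 was the highest, at 1.80 times replicate 1. The mean was 51.2 ± 15.6 CPM, a log2 level 2.21 over 10 CPM (SE 0.16, limma adjusted p = 1.18e-11). Its coefficient of variation of 30.5% was above that of 93.5% of the 2012 genes within 1.5 times of its level, whose median was 14.9%. The summed eosinophil markers stood in the same order over libraries, at 629, 1073 and 1465 CPM (9 listed, 7 above 10 CPM, none at 0). Of all tested genes 58.8% were above 10 CPM. Alox15 (65.6, 137 and 98.9 CPM) and Ccr3 (8.93, 16.3 and 13.3 CPM) were instead highest in replicate 2, and the other listed eosinophil markers followed the order of the sum. The part of eosinophils in the Ireb2 difference was not tested. Ireb2 (ENSMUSG00000032293) lies on chromosome 9 (54863789 to 54912530, plus strand).

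Aco1, which encodes IRP1 or, with an iron-sulphur cluster, the cytosolic aconitase, had 13.2, 13.6 and 14.4 CPM, from 68, 546 and 543 reads. All 3 counting intervals overlapped (10.3 to 16.7, 12.5 to 14.8 and 13.3 to 15.7 CPM). The mean was 13.7 ± 0.631 CPM, a log2 level 0.42 over 10 CPM (SE 0.20), and the limma adjusted p of 0.0498 lay at the threshold. Leaving out replicate 1, 2 or 3 raised the limma adjusted p to 0.0527, 0.181 and 0.122, and DESeq2 on the recovered reads gave 0.0523, each past the threshold, while edgeR gave 0.0265. The adjusted p ranged from 2.55e-06 to 0.181 over all alternatives. Its coefficient of variation was 4.59%, and 2.50% of the 1841 genes within 1.5 times of its level had a smaller one. Aco1 (ENSMUSG00000028405) lies on chromosome 4 (40143081 to 40198338, plus strand).

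Per kb of merged exon, Ireb2 exceeded Aco1 by 0.71 ± 0.36 on the log2 scale, with differences of 0.38, 0.64 and 1.09, so the gap was widest in replicate 3. With the first-numbered mRNAs it was 1.19 ± 0.36. In the order of levels per kb of merged exon, Ftl1 came first, then Fth1, Hmox1, Slc48a1, Slc11a1, Slc40a1, Tfrc, Ireb2, Aco1 and Slc11a2. Neighbours whose ranges over the libraries overlapped were Hmox1 with Slc48a1 and Tfrc with Ireb2. With the first-numbered mRNAs the order was Fth1, Ftl1, Hmox1, Slc40a1, Slc48a1, Slc11a1, Ireb2, Tfrc, Aco1 and Slc11a2, with overlaps of Hmox1 with Slc40a1, Slc48a1 with Slc11a1 and Ireb2 with Tfrc.

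**Figure D3:**
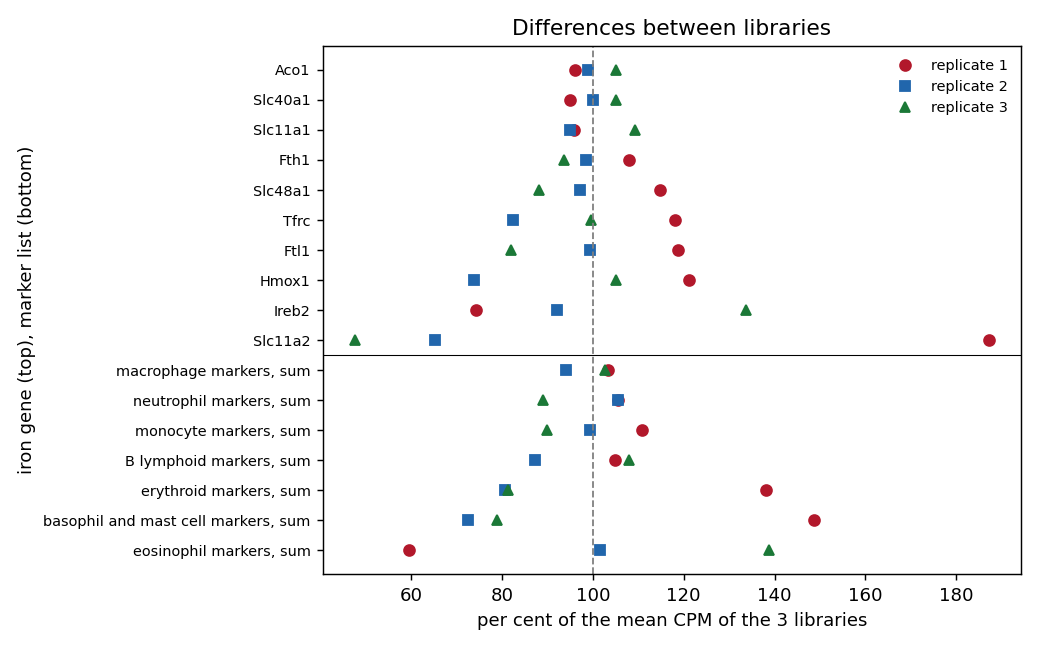
Level in each library as per cent of the mean of the 3 libraries, for the 10 iron genes (top) and for the summed CPM of 7 lists of cell type markers (bottom), each sorted by the ratio of highest to lowest library. Aco1, Slc40a1, Slc11a1 and Fth1 stay between 93.6 and 109% in every library, and Slc11a2 has the widest range, from 47.6 to 187%.

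The genes around these 10 were taken from 6 lists by role, which held 81 genes. Of these, 66 were listed in the files and 63 had enough reads to test. Above 10 CPM were 40 and below were 17, so 63.5% of the tested genes were above and 27.0% below, beside 58.8% and 28.3% of all tested genes. The median was 22.3 CPM, beside 19.7 CPM over all listed genes. These shares are near those of all genes, and the counts of each list below are to be read beside the same 58.8% and 28.3%.

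Among export partners and genes of the hepcidin axis, 2 of 4 listed genes were above 10 CPM and 1 below. Furin, the proprotein convertase gene whose product matures hepcidin, was at 170.4 ± 38.8 CPM and Smad4, a mediator of BMP signals to the hepcidin gene, at 44.5 ± 10.1 (SD, n = 3). Hfe, the haemochromatosis gene, was below at 4.18 ± 0.239 (limma adjusted p = 0.000604), a call that was lost against 5 CPM. The hepcidin gene Hamp and the ferroxidase gene Heph were not listed. Cp, the ceruloplasmin gene and an export partner like Heph, had too few reads to test, so every call in this list was of a hepcidin axis gene.

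Of 13 listed genes that handle haem or haemoglobin, 8 were above and 4 below. Hp, which encodes the haemoglobin scavenger haptoglobin and is also a granule gene of neutrophils, was at 2523 ± 176 CPM, Por, the reductase that feeds electrons to haem oxygenase, at 209.8 ± 7.50, and Nfe2l2, the gene of the transcription factor NRF2 that induces Hmox1, at 173 ± 17.4. Below were Abcg2, a haem and porphyrin exporter gene, at 2.37 ± 1.55 and Spic at 2.54 ± 1.01 CPM. The constitutive oxygenase gene Hmox2, chosen after its values were seen, had 76.7, 59.1 and 65.7 CPM and was lowest in replicate 2, as was Hmox1.

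Of 5 listed genes that load or turn over ferritin, 3 were above and 2 below. The iron chaperone genes Pcbp2 and Pcbp1 were at 378 ± 40.8 and 285 ± 13.5 CPM, and Ncoa4, whose product carries ferritin to the lysosome, was at 85.1 ± 6.87 CPM. Pcbp4 was below at 1.90 ± 0.594 CPM. Pcbp3 was also below, at 0.498 CPM in replicate 2 and at 0 in replicates 1 and 3, where a count of 0 allows up to 0.583 and 0.0798 CPM.

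Among 9 listed genes of iron uptake, 4 were above, 3 were below and 2 were too low to test. Ltf and Lcn2, which encode the iron-binding lactoferrin and the siderophore-binding lipocalin 2 of neutrophil granules, were at 28909 ± 458 and 14336 ± 891 CPM and belong to the neutrophil markers as well. Snx3, a sorting nexin gene for transferrin receptor recycling, was at 150.3 ± 4.35 CPM. The transferrin gene Trf was below at 1.51 ± 0.609 and the metal transporter gene Slc39a8 at 1.02 ± 0.362 CPM. Steap3, the gene of the endosomal ferrireductase of the transferrin cycle, had 4.47, 3.04 and 7.05 CPM and was also below (limma adjusted p = 0.00229); it was picked with its values in view.

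Of 7 genes that turn over the iron regulatory proteins or sense iron and oxygen, 6 were above and 1 below. Fbxl5, the iron-sensing F-box gene whose product marks IRP2 for degradation, had 84.1, 87.7 and 149 CPM (mean 107 ± 36.6), so replicate 3 was highest, as for Ireb2. Herc2, a ubiquitin ligase gene, was at 57.8 ± 14.3 and Cul1, the cullin of the Fbxl5 complex, at 54.9 ± 10.3 CPM. Epas1, the HIF-2 alpha gene, was below, at 0.777, 0.199 and 0 CPM, a call that edgeR on the recovered reads did not give (adjusted p = 0.0819).

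Mitochondrial iron and iron-sulphur cluster genes had 17 of 28 members above, 6 below and 5 called neither way, a share above of 60.7%. Nfu1, a cluster carrier gene, was at 97.4 ± 22.4 CPM, and the mitochondrial iron importers Slc25a37 (mitoferrin 1) and Slc25a28 (mitoferrin 2) were at 79.9 ± 17.4 and 41.7 ± 4.40. Below were the ferredoxin gene Fdx1 at 1.64 ± 1.09 and Ndor1, an electron donor for cytosolic cluster assembly, at 2.54 ± 1.65 CPM.

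**Figure D4:**
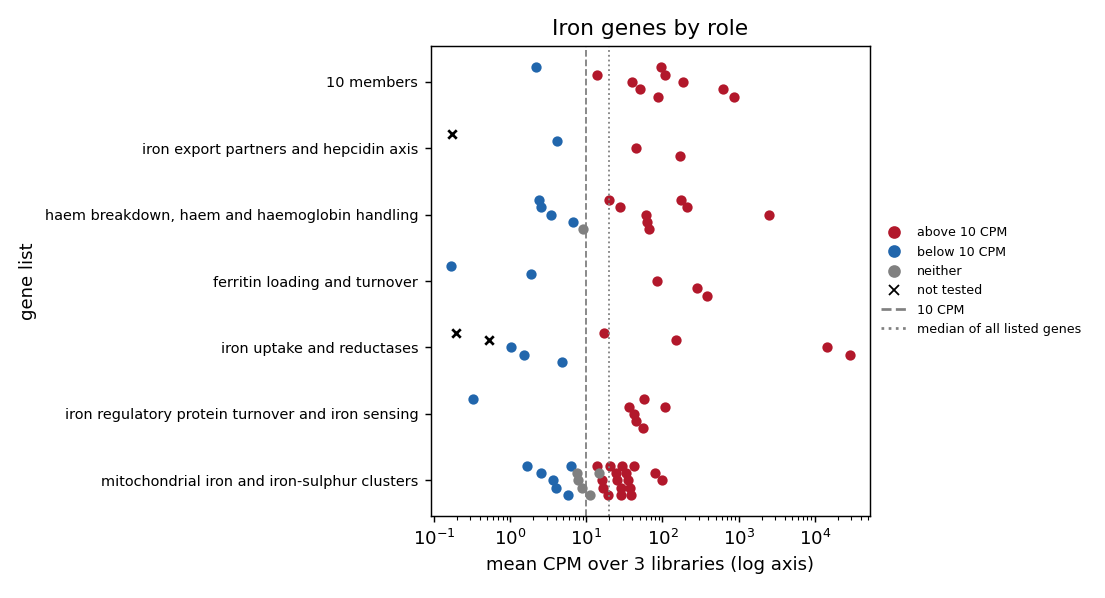
Mean CPM over the 3 libraries (log axis) of the 10 genes and of the 6 lists around them, 1 point per gene, coloured by the limma call against 10 CPM. The lists spread over both sides of 10 CPM (dashed line) and of the median of all listed genes at 19.7 CPM (dotted line), with Ltf and Lcn2 at the far right.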

How the data were processed

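The deposited values were CPM per gene, made by the authors with FastQC, STAR, featureCounts and edgeR and the builds mm10 and GRCh38, per the submitters' processing notes; the sources used here name no versions, annotation, strand setting or gene filter, and no role for each build. Each table held 11463 entries, which gave 11419 genes once identical repeats were dropped, and the CPM of each library then summed to 1000000. All values were whole multiples of the CPM of 1 read within 0.01 reads (100%), so reads were recovered. Intervals are exact 95% Poisson intervals, and they and the limit of a 0 count (3 reads) cover counting error only: PCR copies are not separate molecules, and the labels mention no molecular identifiers.

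In limma 3.58.1 (R 4.3.3), log2(CPM + 1) was tested against log2 of 10 CPM plus 1, two-sided, with a variance trend, over genes with at least 10 reads, and called at an adjusted p under 0.05. The trend draws the variance of each gene toward that of genes of like level, so the SE and p depend on the other genes fitted. With no filter on low reads, the SE was 0.061 for Slc40a1 (limma adjusted p = 1.49e-05) and 0.131 for Aco1 (limma adjusted p = 0.0426). Alternatives used edgeR 4.0.16 and DESeq2 1.42.0 on the recovered reads (edgeR called 6660 genes above and 2787 below), other pseudocounts (0.1, 0.5), levels (5 and 20 CPM), scalings, no filter, and each library left out. All 3 tools were also run on simulated data in which every gene had the same spread beyond counting error. Real genes differ in spread, so that run does not show how the tools behave on these data. Gene positions, lengths and sequences came from GENCODE M21 (GRCm38, the assembly of mm10). Pairs of genes were compared per kb of merged exons. Named genes were the 10 members and, in each of 6 lists, up to 3 of highest mean called above and 2 of lowest mean called below. The members and lists were chosen with earlier results of these data known.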

Additional observations from a re-analysis of the deposited data

How the results depend on the processing

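The 9 calls above and 1 below 10 CPM had 1 exception over the alternatives run: Aco1, whose log2 level turned to -0.51 against 20 CPM, where 2 of the 10 genes were below. Of the genes around them, 9 were below the level at 5 CPM in place of 17. Epas1 could not be tested without replicate 1 or 2, nor Pcbp3 without replicate 2.

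Differences per kb followed the length used; all values are log2. By the longest transcript, Fth1 - Ftl1 was -0.60, Slc40a1 - Tfrc 2.52, Slc40a1 - Hmox1 -0.36 and Ireb2 - Aco1 1.19. By the first-numbered mRNA, a length chosen after seeing the data, Fth1 - Ftl1 was 0.55, Slc40a1 - Tfrc 2.74, Slc40a1 - Hmox1 -0.14, Slc48a1 - Slc11a2 5.45, Ireb2 - Aco1 1.19 and Tfrc - Slc11a2 3.08. With no length, Fth1 - Ftl1 was 0.49, Slc40a1 - Hmox1 0.96 and Hmox1 - Slc48a1 -0.18, each a reversal, and Slc40a1 - Tfrc was 2.21, Slc11a1 - Slc11a2 4.93, Slc48a1 - Slc11a2 5.20 and Ireb2 - Aco1 1.78. A pseudocount of 0.1 gave 6.99 for Slc48a1 - Slc11a2 and 4.38 for Tfrc - Slc11a2. Without neutrophil, mitochondrially encoded and ribosomal protein genes in the total, the share of reads was 0.275% for the 10 genes, 0.198% for ferritin and 0.0771% for the other 8. No paired analysis was possible because there was 1 group. Among the 10 genes depth limits Slc11a2 most, with 21 reads in replicate 1; Epas1 (4, 8 and 0 reads) and Pcbp3 (0, 20 and 0) had fewer.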

Other observations

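The hairpin search also matched the 5' UTR of Alas2, a gene known to carry an iron-responsive element, among its 21 genes. Alas2, the first enzyme of haem synthesis in erythroid cells, was at 53.7 ± 16.2 CPM (SD, n = 3). Other matches included Gfi1, a transcription repressor gene of granulocytes, at 90.9 ± 12.7 CPM, and Ppia, the cyclophilin A gene, at 286 ± 49.4 CPM. These genes were chosen after their values were seen, and a match is no sign that the hairpin works there.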
